A study of Mus musculus with 2 samples.

Results

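The lowest CTCF summits of the ChIP-seq list in mouse embryonic stem cells (ESCs) were examined. A summit is the base of a called peak at which the pileup of extended tags is highest, and its height is the number of tags stacked there. Members were chosen by their height alone, as the summits on chr1 to chr19 with a height of 6 to 8 tags. They number 4223 of the 33226 summits on these 19 chromosomes, or 12.7%, and the whole list holds 33788. A height of 6 is the lowest in the list and was found at 337 summits, a height of 7 at 1377 and a height of 8 at 2509. The remaining 29003 summits, of 9 tags or more, are called higher summits here, while a summit above a given member, which can itself have 7 or 8 tags, is called a taller summit.

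The study mapped CTCF and cohesin in ESCs, and only its CTCF part was analysed here. Both libraries came from the R1/E mouse ESC line, with a stably integrated bacterial artificial chromosome (BAC) from which CTCF was expressed as a fusion to a LAP tag that contains GFP. Resistant clones had been sorted for GFP by flow cytometry, and the cells' own untagged Ctcf gene was still present, while the antibody was directed against the tag. The CTCF library was made with a goat antibody against eGFP and the control library with a goat IgG isotype antibody, from chromatin fixed with 1% formaldehyde and sonicated to about 500 bp. The labels also call the control library input DNA. It was treated as an IgG precipitate, following the study's methods. There was 1 library for each antibody, so no replicate error exists, and the intervals given here (95%) cover counting error only. Depth was 8391191 tags for CTCF and 7988889 tags for IgG, of 35 bp, and no position and strand is repeated in either. Members are regions of 1 ChIP library and not replicates of it.

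CTCF is a DNA-binding protein with many zinc fingers that recognises a long, directional motif. It acts at insulators and, together with the cohesin ring, anchors chromatin loops, most often between motifs that face each other. Its binding is sensitive to methylation of CpG dinucleotides in the motif and, at imprinted genes, can be limited to 1 parental allele.

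The sequences of the members with the best matches to the CTCF motif are shown first, because they show that a summit of 7 or 8 tags can lie beside a nearly complete motif. The motif is 19 bp long, and the most frequent bases of the matrix used here, built from 192 CTCF sequences of the study's supplementary motif sheet, read TGGCCACCAGGGGGCACTA. Those sequences were drawn from regions bound by the cohesin subunit RAD21 in ESCs of this study, so the matrix is not independent of its data. Each line below gives 59 bases of mm9, 5′ to 3′ on the strand of the motif, with the match in capitals between 20 bases on either side. The summit is named by the protein-coding gene that holds it or, outside those, by the one with the nearest start.
Nhlh1, chr1:173977181-173977239, plus strand: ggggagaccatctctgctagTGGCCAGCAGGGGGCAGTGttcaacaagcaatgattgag
Olfm2, chr9:20548542-20548600, minus strand: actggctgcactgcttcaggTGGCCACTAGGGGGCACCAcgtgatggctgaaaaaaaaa
Dmrtb1, chr4:107410694-107410752, plus strand: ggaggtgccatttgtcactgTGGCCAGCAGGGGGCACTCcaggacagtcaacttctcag
Cdkn1c, chr7:150649961-150650019, minus strand: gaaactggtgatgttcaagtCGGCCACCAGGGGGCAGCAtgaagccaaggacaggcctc
Thsd4, chr9:59900347-59900405, plus strand: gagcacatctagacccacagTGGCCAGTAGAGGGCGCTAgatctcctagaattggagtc
Atoh8, chr6:72136041-72136099, plus strand: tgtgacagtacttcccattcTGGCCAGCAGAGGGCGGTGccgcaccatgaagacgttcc
Ksr2, chr5:118143734-118143792, plus strand: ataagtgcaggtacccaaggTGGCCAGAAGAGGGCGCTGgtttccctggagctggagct
Jmjd1c, chr10:66244920-66244978, minus strand: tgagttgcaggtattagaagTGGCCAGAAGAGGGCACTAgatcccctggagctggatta

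These 8 matches score between 25.2 and 25.7 bits, where 13.05 bits is the threshold at a motif p of 1e-05, the chance that 1 random position of the same base composition scores as high. The Olfm2 and Dmrtb1 matches carry the matrix's most frequent base at 17 of 19 positions, the most among the members, and the Atoh8 and Ksr2 matches at 14. The summit nearest to Nhlh1, which encodes a basic helix-loop-helix factor of neurons, had a height of 8 with 8 CTCF tags and 1 IgG tag within 150 bp. The summit nearest to Olfm2, which encodes a secreted glycoprotein, had 8 CTCF tags and 0 IgG tags. The summit named for Dmrtb1, a DM-domain factor of the testis, lay 53851 bp upstream of that gene, in an intron of an annotated gene that codes for no protein, with 9 CTCF tags and 1 IgG tag. The summit 2935 bp upstream of Cdkn1c, an imprinted inhibitor of cyclin-dependent kinases, had a height of 7, 8 CTCF tags and 0 IgG tags, in a peak of 1091 bp. The intronic summits of Thsd4 and of Ksr2, a scaffold protein of the Ras pathway, had 8 and 10 CTCF tags and 1 IgG tag each. The summits nearest to Atoh8, another basic helix-loop-helix factor, and Jmjd1c, a jumonji-domain protein, had 7 and 8 CTCF tags beside 1 and 0 IgG tags, and the latter lies 313822 bp upstream of the gene's start. All 8 had fewer than 11 CTCF tags, while the summit itself lay 13 bp (Ksr2) to 135 bp (Atoh8) from the motif centre.

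A CTCF motif was present within 150 bp of 2060 of the 4223 members, or 48.8% (Wilson interval 47.3 to 50.3). Of the higher summits 76.0% had one, a difference of -27.2 percentage points (Newcombe interval -28.8 to -25.7). The share was 39.5% (34.4 to 44.8) at a height of 6, 45.1% (42.5 to 47.7) at 7 and 52.1% (50.1 to 54.0) at 8. It reached 87.6% at heights of 25 tags or more. Around points 2000 bp downstream of the members, 5.83% (5.16 to 6.57) of windows of the same width held a motif. Thus the members of every height lay above the share 2000 bp away and below the share of the higher summits. Just outside the height limit, summits of 9 tags had a motif in 58.7% of cases, and the members still lay -9.91 points (-12.2 to -7.59) from that group.

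**Figure D1:**
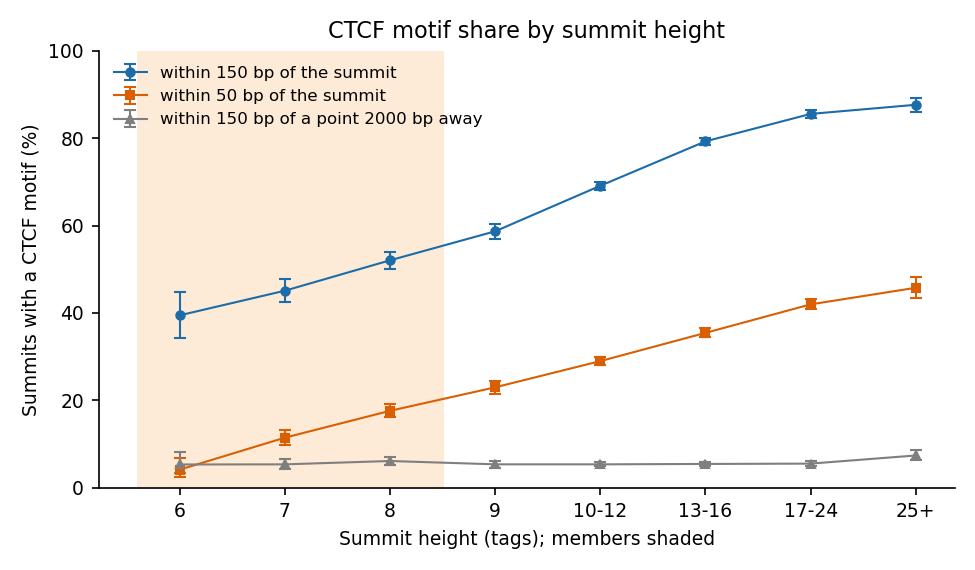
Share of summits with a CTCF motif at p 1e-05 (y axis, percent) by summit height in tags (x axis), within 150 bp of the summit (circles), within 50 bp (squares) and within 150 bp of a point 2000 bp downstream (triangles); bars are 95% Wilson intervals and the members are shaded. The share within 150 bp rises from 39.5% at a height of 6 to 87.6% at 25 or more, while the share 2000 bp away is 5.34% at a height of 6 and 7.41% at 25 or more, and at a height of 6 the share within 50 bp is 4.15%.

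Members without a motif close to the summit often had one farther out in the peak. Of the 2163 members with no motif within 150 bp, 633 (29.3%) had a match elsewhere in the deposited peak, which brings the share with a motif anywhere in the peak to 63.7% (62.3 to 65.2), against 83.7% of the higher summits. Deposited peaks of members had a median width of 562 bp and those of higher summits of 870 bp, so the windows searched differ in length. The remaining 1530 members, 36.2% of all, had no match at p 1e-05 in either. More than 1 match within 150 bp was found at 68 members (1.61%). Where a motif passed, its score had a median of 18.5 bits (18.3 to 18.6) in members and 19.2 bits (19.2 to 19.3) at higher summits, and its interval did not reach that of the higher summits.

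The summits of members lay farther from their motifs than higher summits did. The search window limits this distance to 141 bp, and it was not compared with that of motifs placed evenly over the window. Where a motif was present, the median distance from its centre to the summit was 73 bp (70 to 75) in members, 58 bp (54 to 62) at a height of 9 and 50 bp (49 to 51) over all higher summits. At a height of 6, 103 of 133 motifs (77.4%, 69.6 to 83.7) lay 61 to 141 bp from the summit and 11 (8.27%) within 30 bp. At a height of 7 the corresponding shares were 64.7% and 20.6%, at a height of 8 they were 54.2% and 26.6%, and at heights of 17 to 24 they were 36.6% and 38.3%. Only 14 of the 337 summits of height 6 had a motif within 50 bp, or 4.15% (2.49 to 6.85), where 5.34% of height 6 had one in the wider window 2000 bp downstream and 0.593% in a window of equal width there. At a height of 8 the share within 50 bp was 17.6% (16.2 to 19.2), which differed from that of height 6 by -13.5 points (-15.7 to -10.4, height 6 minus height 8). The lowest summits were thus those with the fewest motifs at the summit itself.

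**Figure D2:**
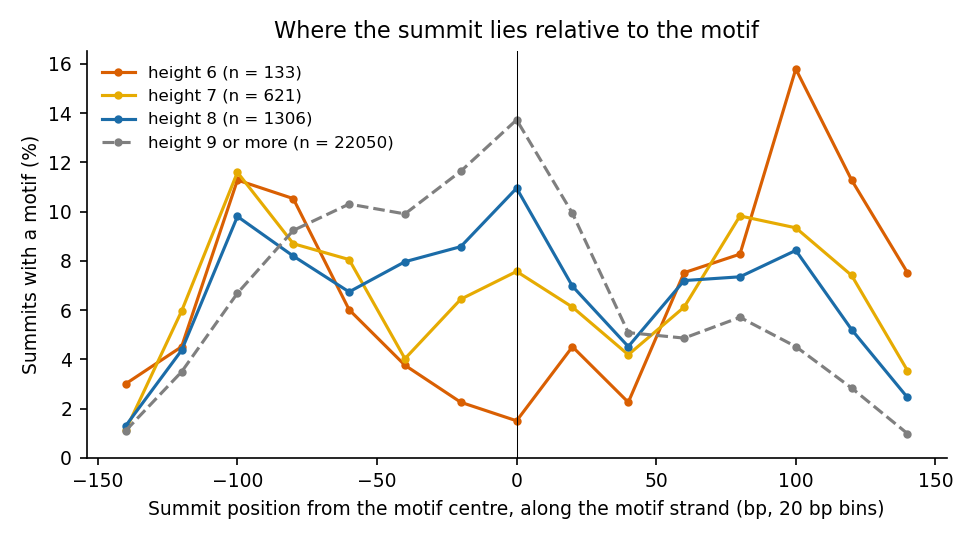
Position of the summit relative to the motif centre along the strand of the motif (x axis, bp, bins of 20 bp, positive values 3′ of the motif) as a percent of summits with a motif (y axis) for heights of 6 (133 summits), 7 (621), 8 (1306) and 9 or more (22050). The higher summits are most frequent at the motif, the summits of height 6 are least frequent there and most frequent about 100 bp to either side.

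The side of the motif on which the summit lay also differed. Higher summits lay 3′ of the motif centre in 40.7% of cases (40.1 to 41.4) and thus more often 5′ of it. In members both sides were nearly equal, with 48.9% (46.7 to 51.1) on the 3′ side. At a height of 6, 78 of 133 summits lay 3′ of the motif, or 58.6% (50.1 to 66.7).

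Members were spread over the parts of genes much like the higher summits, with small differences. Introns of annotated genes held 45.8% of members (44.3 to 47.4) against 44.9% of the higher summits, and intergenic sequence 44.0% (42.5 to 45.5) against 45.5%. Promoters, taken as 1 kb upstream of a gene start, held 166 members, or 3.93%, against 3.66%. The intervals of these 3 differences all include 0, from -3.03 points at the lowest for intergenic sequence to 2.52 points at the highest for introns. Coding exons held 112 members, or 2.65% (2.21 to 3.18), against 2.01%, a difference of 0.645 points (0.171 to 1.20). Within 1 kb of the start of a protein-coding gene lay 246 members, or 5.83%, against 5.00%, a difference of 0.822 points (0.107 to 1.61). Neither difference was seen against the summits of 9 tags alone, of which 2.87% lay in coding exons and 6.24% near a gene start (differences of -0.218 and -0.410 points, with intervals that include 0). Of the members, 3′ UTRs held 67, non-coding exons 67 and 5′ UTRs 16. The median distance to the nearest start of a protein-coding gene was 21196 bp (19872 to 22641) for members and 22860 bp (22305 to 23340) for higher summits.

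Members near gene starts had a motif less often than other members, which was also found among higher summits. Of the 246 within 1 kb of a start, 76 had one, or 30.9% (25.5 to 36.9), against 49.9% of the 3977 others, a difference of -18.99 points (-24.7 to -12.8). Higher summits within 1 kb of a start had a motif in 59.3% of cases (56.7 to 61.8), and those farther away in 76.9% (76.4 to 77.4). In coding exons 52 of 112 members had one (46.4%), in introns 47.9% and in intergenic sequence 51.3%. In each of the classes coding exon, 3′ UTR, intron, promoter and intergenic the share was lower than that of the higher summits of the same class, with differences from -21.4 points in coding exons to -30.9 points in 3′ UTRs, and none of their intervals includes 0.

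The 5 coding-exon members with the highest motif scores are shown because in each the summit lies in a coding exon of the gene named. The capitals mark the match and the strand is that of the motif, with mm9 positions as before.
9030617O03Rik, chr12:102079594-102079652, minus strand: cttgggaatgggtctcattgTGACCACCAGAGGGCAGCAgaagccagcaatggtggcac
Tekt5, chr16:10395407-10395465, plus strand: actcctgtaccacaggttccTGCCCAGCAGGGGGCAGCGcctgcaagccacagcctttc
Pdilt, chr7:126663322-126663380, plus strand: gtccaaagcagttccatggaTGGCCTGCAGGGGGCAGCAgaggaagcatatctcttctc
Cyp27b1, chr10:126486985-126487043, minus strand: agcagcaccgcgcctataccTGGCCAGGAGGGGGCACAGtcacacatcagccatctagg
Dcdc2b, chr4:129286059-129286117, minus strand: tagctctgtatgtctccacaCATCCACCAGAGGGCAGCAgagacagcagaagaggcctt

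The summit in 9030617O03Rik had a height of 8, 13 CTCF tags and 1 IgG tag, and it lay 8 bp from the motif centre. That in Tekt5, a structural protein of sperm flagella, had 9 CTCF tags and 0 IgG tags at 26 bp from its motif and 173 bp downstream of the gene's start. Pdilt, a testis member of the protein disulfide isomerase family, held a summit of height 7 with 8 CTCF tags and 1 IgG tag. Cyp27b1, the enzyme that activates vitamin D, held one with 8 CTCF tags and 1 IgG tag, 107 bp from the motif. The summit in Dcdc2b, which overlaps the annotated gene 2510006D16Rik, had 10 CTCF tags and 0 IgG tags. From these 5 summits a taller summit lay 4060 bp (Pdilt) to 26323 bp (Dcdc2b) away.

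GC content was close in members and higher summits, while the ratio of observed to expected CpGs was slightly lower in members. The 301 bp around the summit had a median GC of 45.8% (45.5 to 46.2) in members and 46.2% (46.2 to 46.5) at higher summits, and 45.3% (45.02 to 45.5) at points 2000 bp from the members. More than 50% GC was found at 27.1% of members and 27.3% of higher summits, a difference of -0.221 points (-1.64 to 1.23). Sequence with over 50% GC and a CpG ratio over 0.6, as in CpG islands, held 104 members (2.46%) and 2.39% of higher summits, a difference of 0.0733 points (-0.390 to 0.613). Members with over 50% GC had a motif in 53.9% of cases and the others in 46.9%. Within the motif itself, a CpG was present in 35.6% (33.5 to 37.7) of the matches in members and 40.1% (39.4 to 40.7) at higher summits, a difference of -4.47 points (-6.61 to -2.28).

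GC ranged from 27.2% to 74.4% over the members. The highest value was shared by the summits at Celf1 and Bptf, 86 and 181 bp upstream of the start, and in an intron of Usf2, 797 bp downstream of the start. Celf1 encodes an RNA-binding protein, Bptf a subunit of a chromatin remodelling complex and Usf2 a basic helix-loop-helix factor. The 301 bp there held 34 CpGs at Celf1, 36 at Bptf and 32 at Usf2. They had 9, 8 and 11 CTCF tags, each with 0 IgG tags, and a motif was present at Usf2 (20.4 bits) and Bptf (15.4 bits) and absent at Celf1. The lowest GC was found in introns of Gm10332 (27.2%), Brip1, a DNA helicase (27.9%), and Faf1, a Fas-associated factor (28.2%). Of these, only the Faf1 summit had a motif, of 18.5 bits, with 8 CTCF tags and 0 IgG tags.
The 101 bases around the summits of Usf2 and Faf1 are given on the plus strand of mm9 to show both extremes of composition among members with a motif, with CpGs in capitals and the motif unmarked. The Faf1 stretch ends within its motif.
Usf2, chr7:31740975-31741075: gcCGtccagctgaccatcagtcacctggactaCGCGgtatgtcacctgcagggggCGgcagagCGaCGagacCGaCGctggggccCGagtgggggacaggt
Faf1, chr4:109416690-109416790: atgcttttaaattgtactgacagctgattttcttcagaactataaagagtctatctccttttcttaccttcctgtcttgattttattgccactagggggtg

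Members had another summit within 1 kb more often than higher summits had. In the share within 10 kb and in the median distance they were close to the summits of 25 tags or more. The nearest summit of any height was a median of 9033 bp (8480 to 9681) from a member, 11518 bp from a summit of 9 tags and 11334 bp (11095 to 11572) from a higher summit, but 9235 bp (8616 to 9987) from a summit of 25 tags or more. Within 1 kb another summit was present for 409 members, or 9.69% (8.83 to 10.6), against 7.49% at a height of 9 and 4.26% of the higher summits, a difference from the latter of 5.43 points (4.54 to 6.38). Of the summits of 25 tags or more, 3.15% (2.42 to 4.09) had one. Within 5 kb the shares of members and higher summits were 37.5% and 30.2%, and within 10 kb they were 52.4% and 46.8%, where the summits of 25 tags or more had 34.8% and 52.5%. At 50 kb members and higher summits had 86.3% and 85.8%, and the difference of 0.423 points (-0.719 to 1.51) has an interval that includes 0, while the summits of 25 tags or more had 91.7%. The nearest summit with a greater height lay a median of 10469 bp (9757 to 11413) away. That distance depends on the height itself, since most of the list stands above a member, and it is given as a description.

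**Figure D3:**
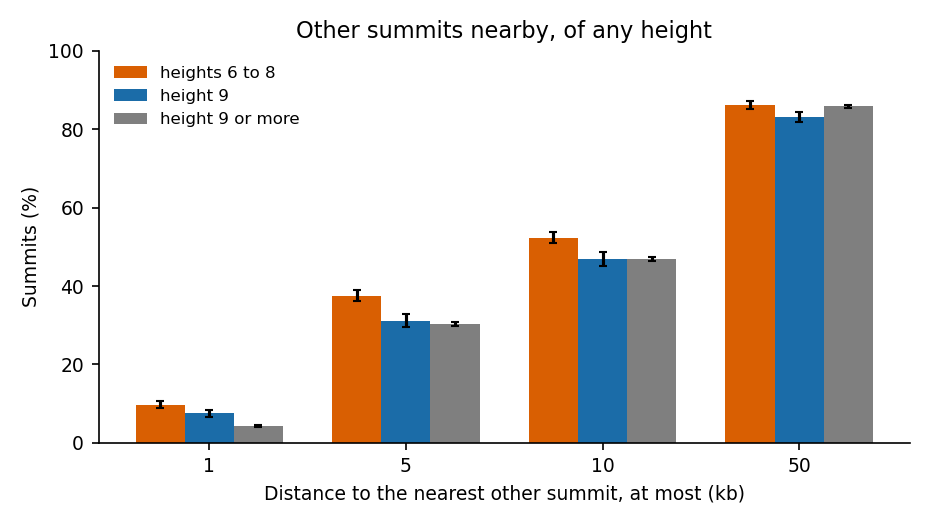
Share of summits (y axis, percent, with 95% Wilson intervals) that have another summit of any height within 1, 5, 10 or 50 kb (x axis), for members, for summits of 9 tags and for all higher summits. Members are above the higher summits at 1 kb (9.69% and 4.26%), 5 kb and 10 kb, and the shares at 50 kb are 86.3% and 85.8%.

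Members beside a taller summit mostly lacked a motif of their own. Within 1 kb a taller summit was present for 353 members, at a median distance of 754 bp (727 to 781). The taller summits had a median height of 13 tags, with a lowest of 7 and a highest of 51. The 353 pairs share 350 distinct taller summits. Of these members 65 had a motif, or 18.4% (14.7 to 22.8), while in 254 pairs the taller summit did, or 72.0% (67.1 to 76.4). At 221 pairs (62.6%) only the taller summit had a motif, at 33 (9.35%) both had one and at 67 (18.98%) neither. Over all members with any other summit within 1 kb the motif share was 20.3% (16.7 to 24.5), which is -31.5 points (-35.5 to -27.1) from that of the other members. The share rose to 42.5% of members whose nearest summit was over 1 and up to 5 kb away, and was 56.3% at over 5 and up to 50 kb and 55.0% at over 50 kb. At these larger distances the members' shares were still below those of higher summits with the same spacing, with differences of -20.9 and -21.04 points. Higher summits also had fewer motifs beside a close neighbour, with 61.5% where another summit lay within 1 kb and 75.9% at over 1 and up to 5 kb. The differences of members from these were -41.2 and -33.4 points.

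The 3 members closest to a taller summit were 301 bp from it in an intron of Rock2, which encodes a protein kinase, 312 bp in sequence nearest to Pappa, a metalloproteinase, and 315 bp near Tufm, a mitochondrial elongation factor. Each had a height of 8 and 8 CTCF tags, with 0 IgG tags at Rock2 and 1 at the others, beside summits of 11, 10 and 18 tags. A motif was present only at Rock2 (24.1 bits). The 3 farthest members lay 1052057 bp from a taller summit near Gm1840, 945966 bp in an intron of Zfp804a, which encodes a zinc finger protein, and 925517 bp in an intron of Sema6d, a semaphorin. They had 7, 11 and 12 CTCF tags and 1, 0 and 0 IgG tags, and a motif was present only near Gm1840 (20.4 bits).

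Tags within 150 bp of the summit were counted after moving each by 94 bp toward the fragment centre. The height rule and the peak calling used these same libraries, so the counts are a description. Members had 36601 CTCF tags and 3519 IgG tags in all, which is 8.67 and 0.833 per summit, and a ratio of 9.90 after scaling to depth (9.57 to 10.3, exact). The ratio was 9.44 at a height of 6, 9.73 at 7, 10.04 at 8, 10.3 at 9 and 14.8 (14.6 to 14.9) over all higher summits. In windows of equal width 2000 bp on either side of the members, the CTCF library had 2.01 tags and the IgG library 0.977, a ratio of 1.96 (1.91 to 2.01). The same ratio was 1.95 (1.93 to 1.97) beside the higher summits. Thus the surroundings of both groups had about the same ratio, and it was above 1.

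CTCF counts of single members ran from 6 to 15 tags with a median of 8, and 72.5% of members had 7 to 9 of them. IgG counts ran from 0 to 5 tags. Spread evenly over the effective genome size of 1870000000, the IgG library would give 1.29 tags in 301 bp. That is more than was counted 2000 bp from members or from higher summits. No IgG tag was found at 1816 members (43.0%), 1 tag at 1502, 2 at 724, 3 at 157, 4 at 22 and 5 at 2. The IgG mean of 0.833 lay below the 0.977 found 2000 bp away, while at higher summits it was 1.12 at the summit and 0.990 away from it. The members with 5 IgG tags lie in an intron of Chchd3, a mitochondrial inner membrane protein, with 6 CTCF tags, and near Lrfn2, a synaptic adhesion protein, with 8. Of the 22 with 4, that near Cps1, the first enzyme of the urea cycle, had 10 CTCF tags. None of these 3 had a motif at p 1e-05.

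**Figure D4:**
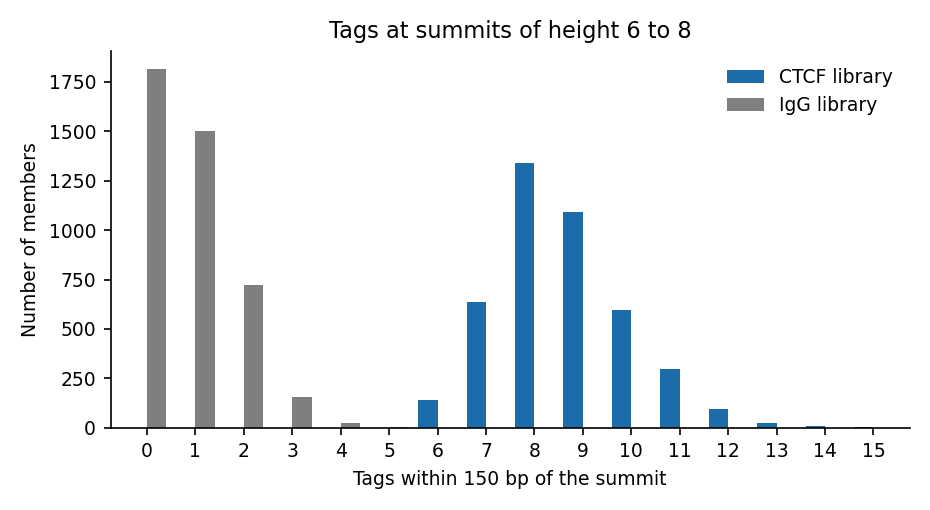
Number of members (y axis) by the number of tags within 150 bp of the summit (x axis) in the CTCF library and the IgG library. CTCF counts lie between 6 and 15 and IgG counts between 0 and 5 over the 4223 members, as the height rule and the peak calling on these libraries set them.

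Both strands contributed to most members. CTCF tags of members divided into 18353 on the plus and 18248 on the minus strand, and 92.6% of members had at least 2 on each, against 99.1% of higher summits. The share was 84.9% at a height of 6, 90.1% at 7 and 94.98% at 8.

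A recount of each summit with a one-sided Poisson probability of at most 1e-05, against the highest IgG rate found genome-wide or within 1, 5 or 10 kb, passed 984 members, or 23.3%, where 85.7% of all summits on these chromosomes passed. The members were chosen on the height that enters this probability, and nothing is read from the count. At the height limit, 31.3% of summits of height 8 passed and 60.9% of those of height 9. For the same neighbouring heights the mean CTCF count was 9.16 and 10.2 tags, the mean IgG count 0.869 and 0.9495, the GC median 45.8% and 46.2%, the median peak score 62.1 and 69.2, and the motif share 52.1% and 58.7%. The deposited peak score, -10 times the log10 of the authors' p-value, had a median of 59.1 in members and ran from 50 to 171.54.

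Members with and without a motif differed in several of these values. The 2060 with a motif had 8.73 CTCF tags and 0.751 IgG tags each, and a ratio of 11.1 (10.5 to 11.7). The 2163 without had 8.61 and 0.912 tags, and a ratio of 8.99 (8.58 to 9.42). These counts are a description, because the height rule and the peak calling used the same libraries, and the difference was not tested. Those with a motif lay farther from a taller summit, with a median of 14300 bp (12957 to 15288) against 7445 bp (6596 to 8319), and farther from a gene start, with 24580 bp (21715 to 26902) against 19103 bp (17642 to 20689). They were less often within 1 kb of a gene start, 3.69% against 7.86%. This link is not particular to members, since higher summits had a motif in 59.3% of cases within 1 kb of a start and in 76.9% farther away.

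Chromosomes held members in similar proportion. Their share of a chromosome's summits ran from 11.1% on chromosome 13 to 14.1% on chromosome 8, and the share of members with a motif from 38.2% on chromosome 19 to 54.2% on chromosome 5. Per megabase the members ran from 1.17 on chromosome 13 to 2.85 on chromosome 11. Around the Ctcf gene itself, which the BAC carries in addition to the genome's own copy, 22 summits lay within 100 kb and 1 was a member, with 2 IgG tags.

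Members at genes of interest in ESCs were few. A member in the gene or up to 5 kb upstream was found for 2302 of 21418 protein-coding genes, or 10.7%, and 671 of these had no higher summit. Of 22 pluripotency genes 2 held a member, of 16 genes of cohesin and CTCF 2, of 21 lineage genes 1, of 35 signalling genes 3 and of 28 imprinted genes 4, which is 9.09%, 12.5%, 4.76%, 8.57% and 14.3%. With counts of 1 to 4 these shares are not distinguished from the 10.7% of all protein-coding genes. The imprinted list also holds non-coding genes, among them Airn, so its share is not of protein-coding genes alone.

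Of the pluripotency genes, Esrrb, an orphan nuclear receptor that sustains self-renewal, held a member in an intron with 10 CTCF tags and 0 IgG tags and no motif, besides 5 higher summits. Tdgf1, a co-receptor of Nodal, held one in an intron with 8 CTCF tags and a motif of 20.9 bits 100 bp from the summit. Among cohesin genes the summit in Stag1, a subunit of the ring, had 9 CTCF tags and a motif of 24.3 bits, and that in Nipbl, the cohesin loader, had 8 CTCF tags, 1 IgG tag and no motif. Gata4, a factor of endoderm and heart, held an intronic member with 11 CTCF tags, all on the minus strand, and a motif of 16.4 bits. In the signalling list, Tcf7l1, a repressor at Wnt targets, held 2 members, of 9 CTCF tags each, 1 in an intron and 1 in the promoter 347 bp upstream of the start, with motifs of 20.4 and 14.6 bits. Smad5, which transmits BMP signals, had a member in a coding exon with 8 CTCF tags and no motif, without a higher summit in the gene.

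Of the imprinted genes, Cdkn1c had the member upstream of the gene described first, with no higher summit within the gene or 5 kb upstream. A summit of 15 tags lay 2670 bp from this member, beyond that 5 kb limit. Mest held a member in an intron with 10 CTCF tags and 1 IgG tag, Airn, the non-coding RNA antisense to Igf2r, one with 8 CTCF and 3 IgG tags, and Rasgrf1, a Ras exchange factor, one with 10 CTCF tags and 1 IgG tag. None of these 3 had a motif at p 1e-05. The Airn member lies 559 bp from a summit of 16 tags. The motif matches at Stag1 and Gata4 show a higher and a lower score among these lists and are printed with the match in capitals.
Stag1, chr9:100637080-100637138, plus strand: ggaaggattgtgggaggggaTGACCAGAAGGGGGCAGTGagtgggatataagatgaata
Gata4, chr14:63836808-63836866, plus strand: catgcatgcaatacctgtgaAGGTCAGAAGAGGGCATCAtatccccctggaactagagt
The Stag1 match, of 24.3 bits, carries the matrix's most frequent base at 14 of 19 positions, and the Gata4 match at 12.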

How the data were processed

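CTCF ChIP-seq of the tagged R1/E ESC line was analysed from 1 CTCF and 1 IgG library. The authors deposited aligned tags (mm9), each with a count of 1, MACS 1.4 peaks with a score, the p-value as -10 log10, and summits whose signal is the tag pileup height. The aligner is not given in the sources used here. The lowest deposited score, 50, stands for a p-value of 1e-05.

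Analyses used pysam 0.24.0, pandas 2.3.3, matplotlib 3.10.9, scipy 1.17.1 and numpy 2.4.6 in Python 3.11.15. The CTCF and IgG libraries held 8391191 and 7988889 tags. With an estimated fragment length of 188 bp, each tag was moved by 94 bp and counted within 150 bp of the summit. Shares carry 95% Wilson intervals, their differences Newcombe intervals, medians order-statistic intervals and ratios exact intervals, all for counting error only. The recount took an effective genome size of 1870000000. Motif thresholds were exact for the matrix (pseudocount 1 per column, base frequencies 0.21 for G and C, 0.29 for T and A). Sequence and annotation were NCBI m37 and GENCODE M1, which counts overlapping genes together in the order coding exon, UTR, non-coding exon, intron, promoter, intergenic. With 1 library per antibody no test across samples was made. The scripts were tested on simulated data.

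Members and gene lists were chosen with earlier results of these data known. Named members were the 8 with the highest motif score, the 5 highest in coding exons, the 3 closest to and the 3 farthest from a taller summit, the 3 highest and 3 lowest in GC, the 3 with the most IgG tags and those at listed genes, of which 1 is not reported here. Alternatives varied the motif threshold and window, the heights, the annotation, the tag window and the scaling.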

Additional observations from a re-analysis of the deposited data

How the results depend on the processing

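The share of members with a motif was 63.6% at a motif threshold of p 1e-04, 32.6% at 1e-06, 14.5% within 50 bp, 44.0% for heights 6 and 7 and, as an alternative chosen after seeing the data, 63.7% anywhere in the deposited peak. The difference from the higher summits stayed below 0 under all of these and against a height of 9 alone, between -32.0 and -9.91 points. With a promoter of 5 kb, promoters held 11.1% and intergenic sequence 36.9% of members, and with protein-coding genes only, exons held 5.40%, introns 43.7% and intergenic sequence 47.0%. The GC median was 45.5% over 1000 bp, where the difference in the share over 50% GC turned to 0.830 points, with an interval that includes 0 either way. The distance to the nearest taller summit was 37384 bp where that summit had at least 16 tags and 9377 bp for heights 6 and 7. The ratio of CTCF to IgG was 8.43 within 250 bp, 11.04 when scaled by tags outside the peaks, 9.22 with tags not moved and 10.6 at a score of at least 75. The recount passed 2424 members within 250 bp and 1925 when scaled by tags outside the peaks, so its count depends on both choices. Chosen after seeing the data, the differences in coding exons and near gene starts became 0.619 and 0.656 points for heights 6 and 7, with intervals that include 0, and -0.218 and -0.410 points against a height of 9 alone. The surplus of members with another summit within 1 kb stayed above 0 against a height of 9 alone (2.20 points) and for heights 6 and 7 (5.54 points). No paired analysis was possible because each antibody has a single library. Each member had 6 to 15 CTCF tags, and how precisely a summit is placed at that depth was not tested.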

Other observations

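Motif matches of members carried the most frequent base of the matrix at a mean of 12.2 of 19 positions, against 12.6 at higher summits. The largest differences by position, counted from 1 at the 5′ end of the motif, were at position 7 (33.6% in members and 43.9% at higher summits, a difference of -10.3 points, -12.4 to -8.12) and position 1 (28.9% and 37.0%, -8.16 points). At position 12 members carried it more often, 73.4% against 69.3% (4.16 points, 2.12 to 6.12). The same held at position 16, with 52.0% against 49.6% (2.47 points, 0.212 to 4.72). At position 19 the difference was 1.69 points, with an interval that includes 0. The core at positions 5, 10 and 13 differed by less than 0.5 points, with over 99% in both groups.

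Members with a motif were paired with their nearest taller summit where it lay 1 to 50 kb away and also had a motif. The motifs faced each other in 245 of 1248 such pairs (19.6%, 17.5 to 21.9), faced away in 27.7% and lay on the same strand in 52.6%. Higher summits were paired in the same way, each with the nearest summit of greater height. Their shares were 19.3%, 29.5% and 51.2%, and the intervals of the groups overlap for each orientation.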
